A study of Rattus norvegicus with 192 samples.

Results

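The endoplasmic reticulum (ER) folding and stress response genes are a set of 32 genes chosen by symbol: luminal chaperones, disulfide isomerases, the stress sensors and transcription factors of the unfolded protein response, the factors of ER-associated degradation (ERAD), and subunits and targets of the ATF4 arm. A row was found for 31 of the 32 symbols among the 17483 genes of the count tables, and Derl2 was not analysed here. Male Crl:CD(SD) rats, adult and wild type, were given an oral gavage daily for 7 days, on postnatal days 56 to 62. The 4 groups received corn oil alone (vehicle), the antibiotic vancomycin at 8 mg per kg body weight per day, the surfactant perfluorooctane sulfonate (PFOS) at 3 mg per kg body weight per day, or vancomycin and PFOS together (the combination). All groups therefore shared the corn oil and the gavage. Hypothalamus, pituitary, thyroid and liver were profiled by bulk RNA barcoding and sequencing (BRB-seq), which reads the 3′ ends of polyadenylated transcripts, in 192 libraries with 12 for each tissue and treatment.

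When unfolded proteins build up in the ER lumen, the membrane sensors IRE1 (Ern1), PERK (Eif2ak3) and ATF6 (Atf6) are activated. IRE1 splices the Xbp1 messenger RNA and ATF6 is cleaved, and the resulting transcription factors induce chaperones and degradation factors, while PERK slows translation and favours that of ATF4, which induces Ddit3, Trib3 and Asns. Cells with a heavy secretory load, such as thyroid follicular cells, hepatocytes and pituitary hormone cells, rely on the same machinery for normal secretion.

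Known motifs of this response were found in the promoters of some members, and the matched sites are shown before the values. Both the motifs and the members come from prior knowledge of the response. The matches are therefore a description, and binding was not tested. RefSeq promoters (assembly GRCr8, 250 bases before to 50 bases after the start) were present for 26 of the members and were searched on both strands. The ER stress response element (ERSE, the letters CCAAT and CCACG with any 9 bases between them) was found in 22 of 33469 rat promoters (0.0657%) and in 8 members. ERSE-II (ATTGG and CCACG with any 1 base between them) was found in 17 promoters (0.0508%) and in 3 members. The fixed letters of each motif are in capitals, each site is written 5′ to 3′ on the strand that holds the motif, and the distance is that of its farthest base before the start.
Hspa5, chr3:38452973-38452991, 43 bases upstream: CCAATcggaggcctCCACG
Hsp90b1, chr7:23012451-23012469, 176 bases upstream: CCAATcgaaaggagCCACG
Hsp90b1, chr7:23012347-23012365, 72 bases upstream, strand opposite to the gene: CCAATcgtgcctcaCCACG
Calr, chr19:40213135-40213153, 232 bases upstream, strand opposite to the gene: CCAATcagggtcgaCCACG
Canx, chr10:35158069-35158087, 230 bases upstream: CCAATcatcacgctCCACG
Creld2, chr7:121789239-121789257, 145 bases upstream, strand opposite to the gene: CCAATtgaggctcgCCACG
Derl3, chr20:12766601-12766619, 154 bases upstream, strand opposite to the gene: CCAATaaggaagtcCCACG
Dnajc3, chr15:102432534-102432552, 133 bases upstream: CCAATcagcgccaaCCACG
Xbp1, chr14:84604558-84604576, 65 bases upstream: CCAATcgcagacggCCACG
Dnajb11, chr11:91672800-91672810, 10 bases upstream: ATTGGcCCACG
Herpud1, chr19:10614821-10614831, 124 bases upstream: ATTGGgCCACG
Hyou1, chr8:53602694-53602704, 188 bases upstream, strand opposite to the gene: ATTGGcCCACG
Hyou1, chr8:53602794-53602804, 88 bases upstream, strand opposite to the gene: ATTGGgCCACG

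Another motif, the unfolded protein response element (UPRE, TGACGTGG), was found in 199 promoters (0.595%) and in 1 member, Hyou1, where it overlaps the farther ERSE-II. The amino acid response element (TGATGNAAT), which ATF4 and its partners bind, was found in 366 promoters (1.09%) and in 0 of the 26. An element with other letters, or one outside the searched bases, would have been missed, so this count does not show that the members lack one. The stretches of 250 bases before the start are shown for 4 members that the results below return to, with each whole ERSE, its 9 spacer bases included, in capitals. They run 5′ to 3′ on the gene's strand, so that a site on the opposite strand reads as CGTGG followed by ATTGG. The genes Pdia3, Pdia6, Manf, Atf6, Ern1 and Derl1 had no promoter entry.
Hspa5, chr3:38452766-38453015, plus strand: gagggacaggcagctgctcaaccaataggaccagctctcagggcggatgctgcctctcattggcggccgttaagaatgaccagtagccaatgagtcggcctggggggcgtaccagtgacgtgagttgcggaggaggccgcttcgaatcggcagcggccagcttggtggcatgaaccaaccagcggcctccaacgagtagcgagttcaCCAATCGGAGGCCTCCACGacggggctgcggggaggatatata
Hsp90b1, chr7:23012294-23012543, minus strand: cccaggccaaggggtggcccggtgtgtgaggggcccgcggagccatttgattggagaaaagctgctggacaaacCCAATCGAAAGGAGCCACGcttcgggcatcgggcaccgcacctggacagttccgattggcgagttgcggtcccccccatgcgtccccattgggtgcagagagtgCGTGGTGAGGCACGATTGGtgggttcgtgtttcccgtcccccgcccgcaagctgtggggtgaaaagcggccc
Creld2, chr7:121789134-121789383, plus strand: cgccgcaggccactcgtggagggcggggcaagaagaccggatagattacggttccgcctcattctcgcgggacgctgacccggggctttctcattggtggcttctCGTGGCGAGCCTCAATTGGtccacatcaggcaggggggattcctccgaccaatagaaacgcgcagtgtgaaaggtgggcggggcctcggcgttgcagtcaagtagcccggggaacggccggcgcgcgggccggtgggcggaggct
Derl3, chr20:12766466-12766715, minus strand: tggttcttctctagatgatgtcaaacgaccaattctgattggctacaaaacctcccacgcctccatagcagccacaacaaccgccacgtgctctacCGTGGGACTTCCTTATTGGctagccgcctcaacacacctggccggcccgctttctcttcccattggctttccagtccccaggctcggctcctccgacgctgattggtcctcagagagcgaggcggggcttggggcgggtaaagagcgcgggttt

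Of the 192 libraries, 178 held at least 100000 counts and were used. Their totals ran from 106742 to 3387946 counts, with tissue medians of 481289 in liver, 501447 in thyroid, 517282 in pituitary and 726925 in hypothalamus. Defining markers were highest in their own tissue: Snap25 in hypothalamus, Gh1 in pituitary, Tg in thyroid and Alb in liver. The thyroid libraries also held the parathyroid hormone gene Pth (mean 42043 CPM, the count scaled to a library total of 1e+06) and the C cell gene Calca (8069 CPM). Tissues processed on the same plate shared low levels of each other's markers. Tg in liver stood at 2.08% of its thyroid level and Gh1 in hypothalamus at 1.53% of its pituitary level. Alb in thyroid stood at 0.825% of its liver level. Lower levels were shared across plates by tissues with the same well barcodes (hypothalamus and thyroid, pituitary and liver). Tg was at 0.0468% of its thyroid level in hypothalamus, against 0.000493% in pituitary. Alb was at 0.0434% of its liver level in pituitary, against 0.00732% in hypothalamus. Since the libraries of a treatment and tissue all came from 1 row of wells, treatment cannot be told apart from position on the plate. Hypothalamus and pituitary were on 1 plate, and thyroid and liver on the other. Comparisons between tissues of different plates, those of the PFOS effect included, therefore cannot be told apart from plate. The labels do not say whether libraries of a group came from separate animals, so the p-values measure the spread between libraries. Levels are CPM of 3′ tags, without a correction for length, and are compared between samples of 1 gene and not between genes.

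In vehicle rats the ER folding genes took their largest share of the transcriptome in the thyroid. The 31 members together held 1.37% ± 0.22 (SD, n = 12) of all counts in thyroid, 0.588% ± 0.0607 (n = 12) in pituitary, 0.419% ± 0.114 (n = 9) in liver and 0.333% ± 0.021 (n = 12) in hypothalamus. By mean CPM, which uses library totals, the level was highest in thyroid for 22 of the 31 members, in liver for 6, in pituitary for 2 and in hypothalamus for 1, Ddit3. The share of all genes highest in each tissue is not given here. Ern1, counted under pituitary, and Trib3, under liver, had almost no counts. Some ranks in thyroid were near ties, such as Pdia4 (1.01-fold over the second tissue) and Atf4 (1.04-fold). The ranks also moved with the trimmed mean of M values (TMM) scaling, used for the tests below. With it, liver was above thyroid for Dnajb11 (log2 0.44), Xbp1 (0.12) and Herpud1 (0.08). Thyroid was below pituitary for Pdia4 (-0.29) and Manf (-0.25). In bulk tissue, fewer cells of a type and less RNA per cell cannot be told apart.

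**Figure D1:**
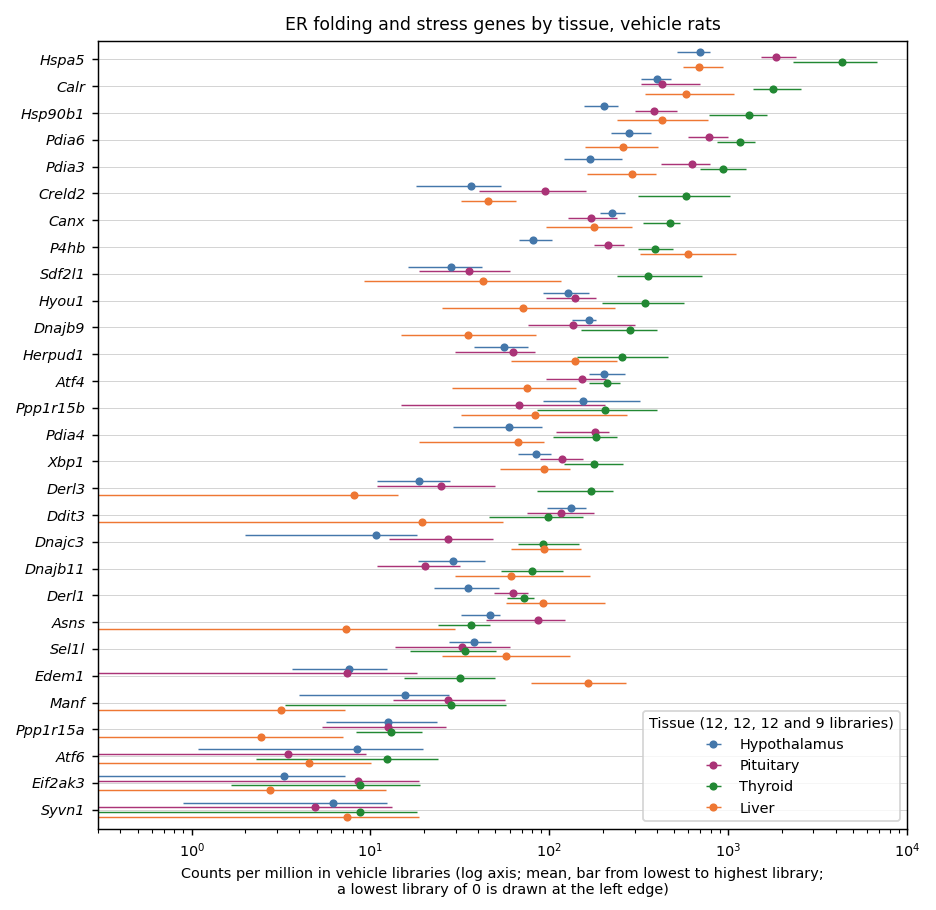
Level of the ER folding and stress response members in the vehicle libraries of hypothalamus, pituitary, thyroid (12 each) and liver (9), in CPM on a log axis, with the mean as a point and a bar from the lowest to the highest library. The thyroid bars lie to the right for most members, from 2299 to 6783 CPM for Hspa5, while Edem1 lies highest in liver.

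Among the luminal chaperones, Hspa5 (BiP, the main Hsp70 chaperone of the ER and the repressor of the sensors) was at 521 CPM in the lowest vehicle hypothalamus library, 698 at the median and 797 in the highest. In pituitary it was at 1532, 1787 and 2386 CPM, and in thyroid at 2299, 4377 and 6783 CPM. In liver it was at 562, 671 and 932 CPM. The thyroid and pituitary ranges overlapped only at the low end of the thyroid, and hypothalamus and liver lay at about the same level. Hsp90b1 (GRP94, the ER member of the Hsp90 family) was at 157 to 243 CPM in hypothalamus (median 199), 301 to 521 in pituitary (398), 239 to 768 in liver (348) and 783 to 1645 in thyroid (1340). Every vehicle thyroid library was above every library of the other tissues for Hsp90b1.

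The lectin chaperone calreticulin (Calr) was also highest in thyroid, with 1375 to 2548 CPM in thyroid (median 1736) against 343 to 1073 in liver (464), 326 to 701 in pituitary (408) and 328 to 479 in hypothalamus (392). Sdf2l1, a partner of BiP and ERdj3, was at 238 to 718 CPM in thyroid (median 310). Its second highest mean, in liver, was 8.3-fold lower, and its liver libraries ran from 9.19 to 116 CPM. Creld2, a secreted and luminal protein induced by ER stress, was at 315 to 1026 CPM in thyroid (median 537), 40.2 to 160 in pituitary (96.9), 32.2 to 65.6 in liver (46.6) and 17.9 to 53.6 in hypothalamus (40.3). Derl3, an ERAD channel component known from secretory cells, was at 86.0 to 227 CPM in thyroid (median 179) and 10.9 to 50.0 in pituitary (22.2). These 3 genes had no thyroid library within the range of another tissue, and the same held for Hsp90b1, Calr and Canx. The share of all genes without such overlap is not given here. For Hyou1 the thyroid libraries (198 to 564 CPM) overlapped with liver, whose highest library had 234 CPM.

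Edem1, the mannosidase-like lectin that hands misfolded glycoproteins to ERAD, was the exception on the liver side. It was at 78.9 to 268 CPM in liver (median 161), above the thyroid libraries (15.4 to 49.6, median 32.1), the hypothalamus libraries (3.64 to 12.4, median 7.24) and the pituitary, whose highest library had 18.3 CPM. P4hb, the disulfide isomerase PDI that also serves prolyl hydroxylase, had its highest mean in liver as well, at 596 ± 267 CPM (n = 9) against 389 ± 47.8 in thyroid, 212 ± 27.4 in pituitary and 81.3 ± 10 in hypothalamus (n = 12 each). The liver and thyroid ranges of P4hb overlapped.

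Of the transcription factors, Xbp1 and Atf4 had their highest mean in thyroid and Ddit3 in hypothalamus. Xbp1, the substrate of IRE1, had means of 177 ± 38.4 CPM in thyroid, 118 ± 20.9 in pituitary, 93.9 ± 29.3 in liver and 84.3 ± 10.9 in hypothalamus. Atf4 stood at 210 ± 29.5 CPM in thyroid, 202 ± 30.8 in hypothalamus, 152 ± 33.1 in pituitary and 75.4 ± 35.5 in liver, and the first and second of these differed by less than their SDs. Ddit3 (CHOP, the factor linked to cell death under ER stress) stood at 132 ± 16.9 CPM in hypothalamus, 117 ± 31.3 in pituitary, 98.6 ± 36.7 in thyroid and 19.5 ± 15.9 in liver. Asns, the asparagine synthetase induced by ATF4, was highest in pituitary at 86.6 ± 20.5 CPM and lowest in liver at 7.28 ± 9.20.

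The sensors themselves were close to the detection limit of these libraries. Atf6 had means of 12.4 ± 6.98 CPM in thyroid, 8.41 ± 6.15 in hypothalamus, 4.53 ± 3.36 in liver and 3.46 ± 3.38 in pituitary, and Eif2ak3 ran from 2.75 ± 3.95 in liver to 8.78 ± 4.67 in thyroid. Ern1 had at most 3 counts over all vehicle libraries of a tissue together, as did Trib3, the pseudokinase induced by ATF4 and CHOP. Atf6, Eif2ak3, Ern1, Trib3, Ppp1r15a (the inducible eIF2alpha phosphatase subunit) and Syvn1 (the HRD1 ubiquitin ligase) did not pass the filter on low counts for the tissue comparisons, which left 25 members tested.

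Between vehicle thyroid and hypothalamus, 22 of the 25 members were higher in thyroid and 0 lower, where 76.1% of all 6560 genes were called at an adjusted p under 0.05 by edgeR's quasi-likelihood test, 37.9% higher and 38.2% lower. The median log2 difference of the members was 1.90, beside -0.01 over all genes. Creld2 differed by 4.24 ± 0.19 (log2 ± SE, adjusted p = 4.98e-26), Sdf2l1 by 3.90 ± 0.21, Derl3 by 3.45 ± 0.16, Hsp90b1 by 2.97 ± 0.12 and Hspa5 by 2.91 ± 0.13 (adjusted p = 2.23e-30). Xbp1 differed by 1.34 ± 0.11 and Atf4 by 0.33 ± 0.12 (adjusted p = 0.00868). The members not called were Ddit3 (-0.15 ± 0.16), Asns (-0.08 ± 0.16) and Sel1l (0.13 ± 0.17). All 9 luminal chaperones tested and all 4 disulfide isomerases were called higher in thyroid.

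The size of these differences moved with the scaling. Trimmed mean of M values (TMM) scaling was used throughout, and scaling by library totals moved the median of all genes in this comparison to -0.29. With library totals the median of the members was 1.63, 20 were higher and 2 lower, and the 20 were also called higher with TMM. Hspa5 then differed by 2.63 and Creld2 by 3.96, while Atf4 differed by 0.06.

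Pituitary was intermediate. Against hypothalamus 18 of the 25 members were higher and 0 lower (68.2% of all genes called, 30.9% higher and 37.3% lower), with a median of 1.01 beside -0.09 for all genes. The disulfide isomerases led: Pdia3 differed by 2.48 ± 0.11 (adjusted p = 5.68e-29), Pdia4 by 2.19 ± 0.15, Pdia6 by 2.06 ± 0.12 and P4hb by 1.95 ± 0.11, and Hspa5 by 1.99 ± 0.12. With library totals the members' median was 0.42 beside -0.67 for all genes, 12 were higher and 4 lower, and the 12, which include all 4 isomerases, Hspa5, Hsp90b1 and Xbp1, were called higher under both scalings. Against pituitary the thyroid was higher for 18 members and lower for 2, Asns (-1.56 ± 0.16) and Ddit3 (-0.55 ± 0.17), where 68.3% of all genes were called, 35.4% higher and 32.9% lower. Here Sdf2l1 differed by 2.95 ± 0.22, Derl3 by 2.44 ± 0.17, Creld2 by 2.30 ± 0.18 and Hspa5 by 0.93 ± 0.12. Pdia4, at -0.29 ± 0.14 (adjusted p = 0.0599), was not called. Asns alone was called lower with library totals too.

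Liver differed from thyroid in both directions. Of the 25 members 6 were higher in liver and 15 lower (64.8% of all genes called, 26.6% higher and 38.2% lower), with a median of -0.65 beside -0.28 for all genes. Under both scalings Edem1, P4hb and Sel1l were higher, by 3.32 ± 0.19, 1.58 ± 0.11 and 1.57 ± 0.20 with TMM and by 2.26, 0.56 and 0.47 with library totals. Sel1l is the adaptor of the HRD1 ligase. On the lower side stood Derl3 (-3.25 ± 0.25), Creld2 (-2.60 ± 0.22), Dnajb9 (-2.14 ± 0.25) and Hspa5 (-1.57 ± 0.14). With library totals 3 members were higher and 20 lower, with a median of -1.68 beside -1.39 for all genes. By role, with TMM, 3 of 5 ERAD members were higher in liver and 1 lower, and of the 9 chaperones 2 were higher and 7 lower. With library totals these counts were 2 and 2 for ERAD and 0 and 8 for the chaperones, and the difference between the roles was not tested.

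Liver against hypothalamus gave 17 members higher and 3 lower (75.4% of all genes called, 32.9% higher and 42.6% lower), and liver against pituitary 13 higher and 10 lower (70.6% called, 30.9% higher and 39.7% lower). Edem1 led both, at 5.56 ± 0.22 and 5.12 ± 0.25. These liver comparisons leaned on the scaling: with library totals they gave 9 higher and 9 lower, and 8 higher and 13 lower, as the medians of all genes moved from -0.22 to -1.64 and from -0.23 to -1.05. Hspa5 against hypothalamus was 1.35 ± 0.13 with TMM and -0.03 with library totals. Asns, Ddit3 and Dnajb9 were lower in liver than in hypothalamus under both.

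**Figure D2:**
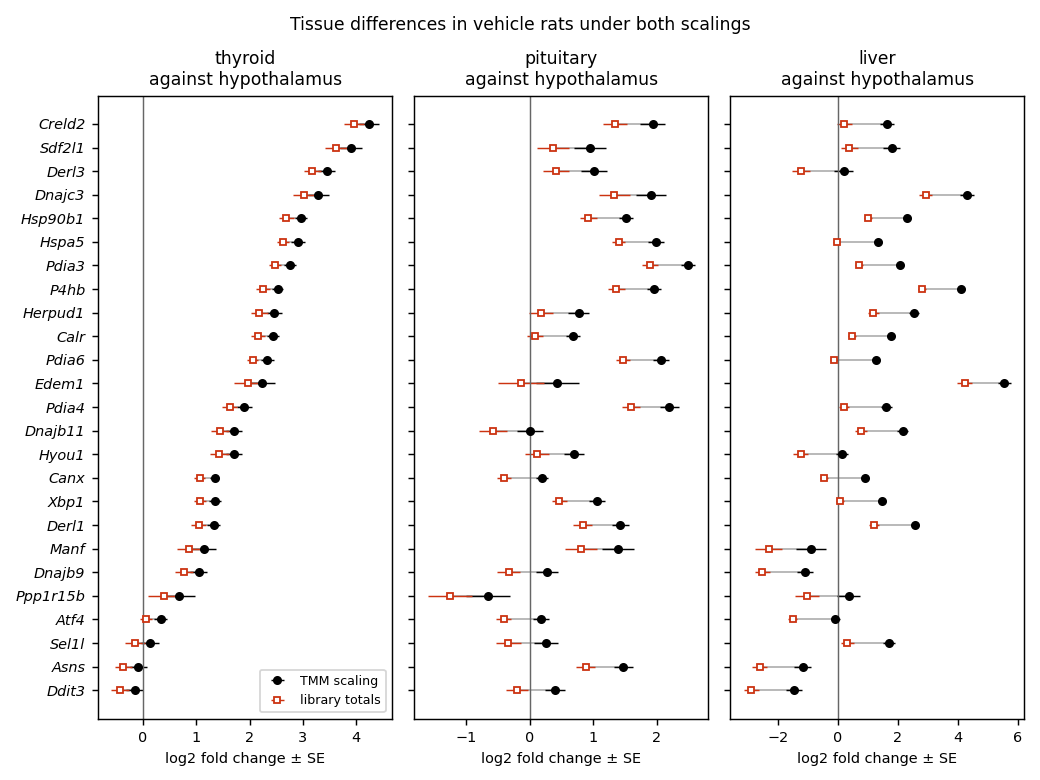
Log2 difference ± SE of thyroid, pituitary and liver against hypothalamus in vehicle rats, 1 panel each, for the 25 tested members in order of the thyroid difference, with TMM scaling (filled circles) and library totals (open squares). In thyroid nearly all members lie above 0 under both scalings, led by Creld2 and Sdf2l1, while the open squares of the liver panel lie well to the left of the circles.

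Other genes of the secretory pathway, taken from lists chosen beside the members, gave smaller medians in thyroid against hypothalamus. ER to Golgi transport genes were higher for 24 and lower for 1 of 26 (median 1.07). N-glycan processing genes were higher for 17 and lower for 3 of 20 (1.09), and translocon and signal peptidase genes for 16 and 5 of 23 (1.11). Other ER chaperones and oxidoreductases were higher for 22 and lower for 6 of 32 (0.79). Other sensors and transcription factors were higher for 6 and lower for 2 of 12 (0.47). The last 3 lists had medians below 0: other ERAD genes were higher for 6 and lower for 8 of 20 (-0.04), ATF4 and amino acid response targets for 8 and 15 of 28 (-0.49), and cytosolic heat shock genes for 1 and 10 of 16 (-0.31).

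The treatments changed few members. Against vehicle, Calr and Sdf2l1 were called in hypothalamus, Dnajb9 and Ppp1r15b in pituitary, and 0 members in thyroid and liver. The comparisons with vehicle within a tissue share the same vehicle libraries.

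**Figure D3:**
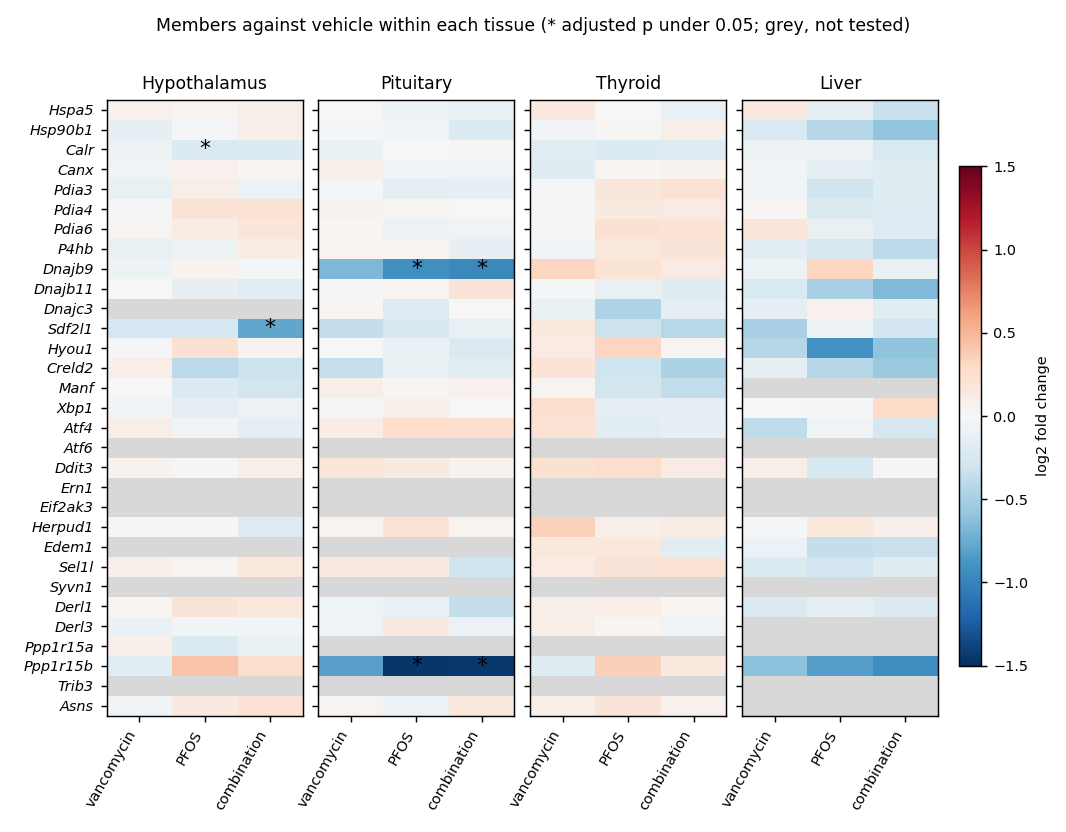
Heat map of the log2 difference from vehicle under vancomycin, PFOS and the combination for each member in each tissue, with an asterisk where the adjusted p was under 0.05 and grey where a member was not tested. The 6 asterisks fall on Calr and Sdf2l1 in hypothalamus and on Dnajb9 and Ppp1r15b in pituitary.

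In hypothalamus under PFOS, 1 of 24 tested members was called, Calr, where 4.37% of all genes were. Calr was at 328 CPM in the lowest vehicle library, 392 at the median and 479 in the highest, against 295, 345 and 395 under PFOS. The groups overlapped, but all 12 PFOS libraries lay below the vehicle mean and 4 below the lowest vehicle library. Of the 12 vancomycin libraries, 10 lay below the vehicle mean and 2 below the lowest vehicle library. Under PFOS Calr fell by 0.22 on the log2 scale (SE 0.07, adjusted p = 0.0481, edgeR). The call was lost with log2 depth as a covariate (adjusted p = 0.171), a depth minimum of 500000 counts (0.0684), all libraries kept (0.0722), no filter on low counts (0.0994) and thinning to a common depth (0.807), while the difference stayed between -0.20 and -0.23. DESeq2 called it (0.0288). The combination gave -0.20 ± 0.07 for Calr, with an adjusted p of 0.0649.

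Under the combination the hypothalamus had 1 member called, Sdf2l1, where 8.14% of all genes were. It was at 16.3, 26.5 and 42 CPM in the lowest, median and highest vehicle libraries and at 9.43, 15.3 and 34.7 CPM in the 11 combination libraries, of which 9 lay below the vehicle mean and 7 below the vehicle minimum. In the vancomycin group and in the PFOS group, 8 of 12 lay below the vehicle mean and 1 below the vehicle minimum. Under the combination Sdf2l1 fell by 0.78 on the log2 scale (SE 0.20, adjusted p = 0.00903). The 6-base well barcodes of 4 combination libraries had another number of G and C bases than those of the other hypothalamus libraries used, and these 4 were the lowest at 9.43 to 12.3 CPM, against 13.8 to 34.7 in the other 7. Without the 4, the difference was -0.51 with an adjusted p of 0.195. Median counts per library for Sdf2l1 were 22 in vehicle and 7 in the combination.

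Vancomycin alone called 0 of 24 members in hypothalamus by edgeR, with 0 at an unadjusted p under 0.05 and 0 by DESeq2, where 0% of all genes were called. The combination against vancomycin called 0 members by edgeR and by DESeq2, with 5 at an unadjusted p under 0.05, where 7.82% of all genes were called. Hspa5 stayed within narrow bounds in this tissue, at 0.03 ± 0.08 under PFOS (95% interval -0.12 to 0.18), 0.06 ± 0.08 under vancomycin and 0.09 ± 0.08 under the combination. Hsp90b1 was at -0.02 ± 0.08, Xbp1 at -0.15 ± 0.11, Atf4 at -0.04 ± 0.11 and Ddit3 at -0.02 ± 0.08 under PFOS. The median of the members under PFOS was -0.02, beside 0.002 over all genes, and the interval of each of the 23 uncalled members lay within a 2-fold change.

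Pituitary had the largest changes of the set. Dnajb9 (ERdj4, the J-domain cochaperone of BiP that holds IRE1 inactive) and Ppp1r15b (CReP, the constitutive subunit of the phosphatase that reverses PERK signalling) were called lower under PFOS, 2 of 24 members where 1.19% of all genes were called. The same pair was called lower under the combination, where 1.37% were. Dnajb9 was at 76.2, 111 and 302 CPM in the lowest, median and highest vehicle libraries, 33.8, 71.3 and 99.2 under PFOS, 47.1, 67.6 and 97.7 under the combination and 65.7, 90.1 and 115 under vancomycin. All 12 PFOS and all 12 combination libraries lay below the vehicle median, though the ranges overlapped. Of the 12 vancomycin libraries, 11 lay below it too. Dnajb9 fell by 0.92 on the log2 scale under PFOS (SE 0.18, adjusted p = 0.00224) and by 0.96 under the combination (SE 0.17, adjusted p = 0.000504).

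Ppp1r15b was at 14.8, 51.8 and 206 CPM in vehicle, 9.46, 23.2 and 47.4 under PFOS, 18.2, 24.1 and 38.7 under the combination and 17.7, 35.6 and 73.2 under vancomycin. Again all PFOS and combination libraries lay below the vehicle median, as did 9 of the 12 vancomycin libraries. It fell by 1.46 under PFOS (SE 0.31, adjusted p = 0.00528) and by 1.44 under the combination (SE 0.30, adjusted p = 0.00421). Vancomycin alone gave -0.68 for Dnajb9 and -0.82 for Ppp1r15b, with adjusted p of 0.338 and 0.853, where 0.0228% of all genes were called, 0 members by edgeR and by DESeq2, and 2 members had an unadjusted p under 0.05. The combination differed from vancomycin alone for 0 members by either tool, with 3 at an unadjusted p under 0.05.

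The vehicle libraries of the pituitary were split for these genes. In 5 of the 12, the well barcode had another number of G and C bases than the 5 of 6 bases found in all other pituitary barcodes. Those 5 held Dnajb9 at 192 ± 82.4 CPM (123 to 302) and Ppp1r15b at 112 ± 59.9 CPM (58.0 to 206). The other 7 vehicle libraries held them at 96.9 ± 24.8 (76.2 to 151) and 36.8 ± 15.5 (14.8 to 59.2), nearer to the vancomycin libraries at 88.7 ± 15.8 and 41 ± 17.6. Without the 5, Dnajb9 was at -0.42 under PFOS and -0.46 under the combination (adjusted p = 1 and 0.856), and Ppp1r15b at -0.50 and -0.49 (adjusted p = 1 for both). With a minimum depth of 500000 counts, which leaves 3 vehicle libraries, neither was called.

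No other member was called in pituitary. Hspa5 was at -0.07 ± 0.08 under PFOS (95% interval -0.22 to 0.08) and -0.10 ± 0.08 under the combination, Hsp90b1 at -0.07 ± 0.10 and -0.21 ± 0.10, Xbp1 at 0.08 ± 0.11 and 0.01 ± 0.11, Atf4 at 0.26 ± 0.17 and 0.25 ± 0.17, and Ddit3 at 0.13 ± 0.12 and 0.06 ± 0.12. The intervals of all 22 uncalled members lay within a 2-fold change under PFOS. Of the lists, Ssr3, a subunit of the translocon-associated protein complex, was lower under PFOS (-0.99 ± 0.22, adjusted p = 0.0064). It was also lower under the combination (-1.08 ± 0.22, adjusted p = 0.00214), and no other listed gene was called against vehicle. The part of the vehicle libraries of unusual barcode content in the Ssr3 values was not tested.

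**Figure D4:**
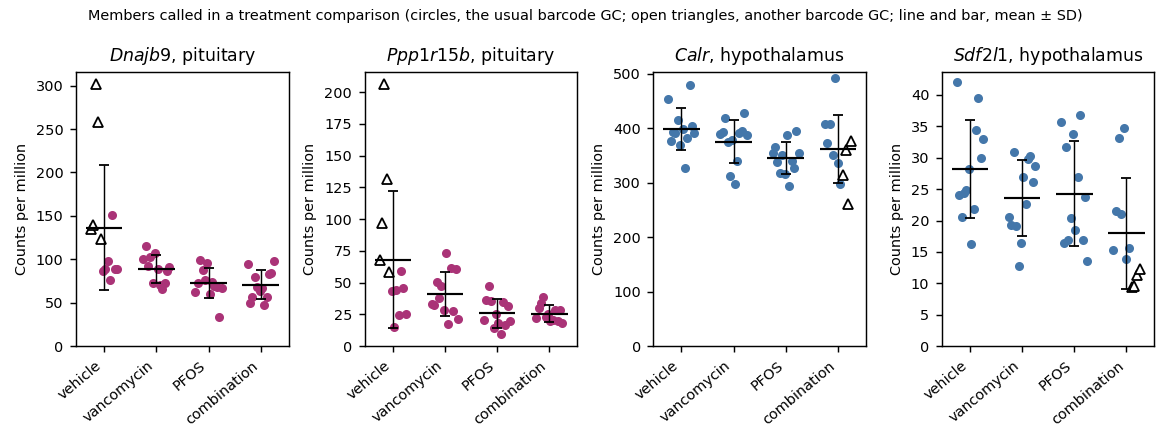
Level in CPM of the 4 called members by treatment in their tissue, with 1 mark per library and the mean ± SD, and open triangles for libraries with an unusual number of G and C bases in the barcode. The triangles in vehicle pituitary run from 123 to 302 CPM for Dnajb9 against 76.2 to 151 CPM for the circles, and those of the combination are the lowest hypothalamus libraries for Sdf2l1.

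The PFOS effect was also compared between tissues. For Dnajb9 it was lower in pituitary than in hypothalamus by 0.96 on the log2 scale (-0.96 ± 0.23, adjusted p = 0.00894), and for Ppp1r15b by 1.87 (-1.87 ± 0.46, adjusted p = 0.0164), 2 of 24 members where 1.74% of genes were called. Between thyroid and pituitary the differences were 1.1 ± 0.29 (adjusted p = 0.0291) and 1.79 ± 0.48 (0.0344), where 1.97% were called. Both pairs of calls were lost without the libraries of unusual barcode content, an alternative chosen after the data were seen, with Dnajb9 at -0.46 and 0.60 and Ppp1r15b at -0.91 and 0.83. They were also lost with depth as a covariate. In the other tissue pairs 0 members were called by edgeR, where 0% to 1.55% of genes were (1.44% between liver and hypothalamus), with 0 to 4 at an unadjusted p under 0.05.

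In thyroid, where the set is most abundant, 0 of 25 members were called by edgeR against vehicle under PFOS (0.0589% of all genes called), vancomycin (0%) or the combination (2.79%). At an unadjusted p under 0.05 there were 2, 1 and 1 members, and DESeq2 called 0 in each. Hspa5 was at -0.01 ± 0.19 under PFOS (95% interval -0.38 to 0.36), 0.15 ± 0.18 under vancomycin and -0.11 ± 0.18 under the combination. Hsp90b1 was at 0.02 ± 0.17, Xbp1 at -0.14 ± 0.13, Atf4 at -0.17 ± 0.16 and Ddit3 at 0.26 ± 0.22 under PFOS. All 25 intervals under PFOS lay within a 2-fold change. Combination against vancomycin called 0 members by edgeR (3.24% of all genes called), with 6 at an unadjusted p under 0.05. DESeq2 called 1 there, Xbp1, at -0.39 ± 0.13 with an adjusted p of 0.0392, against -0.38 ± 0.13 and 0.0729 by edgeR.

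In liver 0 of 22 members were called by edgeR or by DESeq2 under PFOS (0.831% of all genes called), vancomycin (0%) or the combination (0.769%), with 2, 0 and 6 at an unadjusted p under 0.05. The values leaned below vehicle: 19 of 22 were negative under PFOS, with a median of -0.18 beside -0.02 for all genes, 18 of 22 under vancomycin, with -0.11 beside -0.01, and 19 of 22 under the combination, with -0.22 beside -0.02. All 3 comparisons share the same 9 vehicle libraries. Hyou1, a large Hsp70-related chaperone, was at -0.91 ± 0.31 under PFOS (adjusted p = 0.235), Ppp1r15b at -0.93 ± 0.34 (0.3) and Hsp90b1 at -0.59 ± 0.24 (0.409) under the combination. Hspa5 was at -0.15 ± 0.17 under PFOS (95% interval -0.49 to 0.18), 0.14 ± 0.16 under vancomycin and -0.33 ± 0.16 under the combination (adjusted p = 0.515). Under PFOS Xbp1 was at -0.01 ± 0.24, Atf4 at -0.06 ± 0.24 and Ddit3 at -0.24 ± 0.38.

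Barcode content split the liver vehicle group as well, with 5 of 9 libraries unusual. Without them the medians were -0.09 under PFOS, -0.04 under vancomycin and -0.13 under the combination. The liver libraries also carried thyroid markers, whose summed level ran from 819 to 2951 CPM in vehicle, 841 to 2141 under PFOS and 845 to 2532 under the combination, and their part in these values was not tested. Under PFOS 19 of the 22 intervals lay within a 2-fold change. The combination against vancomycin called 0 liver members by either tool (0.923% of all genes called), with 2 at an unadjusted p under 0.05. In all 4 tissues the combination against PFOS, and the interaction of both agents, called 0 members by edgeR and by DESeq2, where 0% of all genes were called, with 0 to 2 members at an unadjusted p under 0.05.

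The pathway lists had called genes in every tissue, and most in hypothalamus, which also had the largest share of all genes called against vehicle (4.37% under PFOS and 8.14% under the combination). Under PFOS there the heat shock list held Hspa8 (0.23 ± 0.06) higher and Hsp90aa1 (-0.22 ± 0.07) lower, and the ATF4 list held the tryptophan tRNA synthetase gene Wars1 (0.38 ± 0.12) higher, 1 of 28. The Golgi tether gene Golgb1 (-0.75 ± 0.19), Creld1 (-0.74 ± 0.20) and the signal peptidase gene Spcs2 (-0.26 ± 0.08) were lower. Under the combination the serine synthesis genes Psat1 (-0.30 ± 0.08) and Phgdh (-0.30 ± 0.09) were the only ATF4 targets called, 2 of 28, both lower. The genes called higher were Hspa8 (0.30 ± 0.07), Stip1 (0.23 ± 0.07), Tmed9 (0.38 ± 0.08), Rpn2 (0.29 ± 0.08), Alg2 (0.37 ± 0.11), Ufd1 (0.34 ± 0.09) and Ssr3 (0.44 ± 0.14), the last in the opposite direction to pituitary. Hsp90ab1 (-0.20 ± 0.07), Krtcap2 (-0.18 ± 0.06), Golgb1 (-0.79 ± 0.21) and Creld1 (-0.76 ± 0.21) were lower. Markers of cell types were called in the same comparisons. Under PFOS these were 1 of 5 oligodendrocyte markers (Mobp, -0.59 ± 0.15), the neuronal gene Gad2 (-1.06 ± 0.32) and Pth (-1.03 ± 0.32). Pth stood in hypothalamus at 0.0488% of its level in thyroid, whose libraries carried the same well barcodes. Under the combination the called markers included 2 of 5 of oligodendrocytes (Mobp, -0.79 ± 0.16, and Mbp, -0.54 ± 0.14) and Hbb of blood (-0.70 ± 0.14). The others were C1qb of macrophages (-0.55 ± 0.18) and Pomc (-0.54 ± 0.16), which stood in the list for pituitary hormone cells. Which cells of the hypothalamus held Pomc was not tested. The summed oligodendrocyte levels overlapped (6004 to 8811 CPM in vehicle, 5971 to 8804 under PFOS, 5821 to 8691 under the combination), and the part of these cell types in the list results was not tested. In thyroid the combination called Rpn2 (0.29 ± 0.09), Selenof (0.33 ± 0.07), Bcap31 (0.29 ± 0.08) and Aup1 (0.36 ± 0.10) higher and Hsp90ab1 (-0.40 ± 0.11) lower. Of the pathway lists, liver had Ssr3 alone, lower under the combination (-0.76 ± 0.19, adjusted p = 0.0309). Among the 6 hepatocyte markers, Apoa1 alone was called in liver against vehicle. It was lower under PFOS (-0.649 ± 0.158) and under the combination (-0.905 ± 0.148). The libraries of unusual barcode content were vehicle libraries in pituitary (5) and liver (5). In hypothalamus (4) and thyroid (5) they were combination libraries. Their part in the values of Ssr3, whose direction differed between these tissues, and of the other listed genes was not tested.

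The members varied together most clearly across thyroid libraries. After removal of treatment means, 9 of 24 members correlated positively with Hspa5 over 46 thyroid libraries at an adjusted permutation p under 0.05, where 0.589% of 5090 genes did (30 genes) and 0.668% correlated in either direction. The median r of the members was 0.49, beside -0.02 over all genes. Creld2 had r = 0.88 and rho = 0.87 (permutation p = 1e-05 for each, the smallest that 100000 permutations can give, adjusted p = 0.00463), and r was 0.86 without the 2 libraries of most extreme Hspa5. Creld2 ran from 154 to 1269 CPM and Hspa5 from 2101 to 7044 CPM over these libraries.

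Pdia4 followed at r = 0.73 (rho 0.66, and r = 0.68 without the 2 extremes) and Hyou1 at 0.72 (0.63 and 0.64). Sdf2l1 had r = 0.66 (0.61 and 0.63), Sel1l 0.64 (0.61 and 0.56) and Hsp90b1 0.63 (0.54 and 0.55). Pdia6 at 0.63, Derl3 at 0.62 and Dnajb11 at 0.58 completed the 9. None of the transcription factors Xbp1 (r = 0.14), Atf4 (-0.03) and Ddit3 was among the 9 by transcript level. Splicing of Xbp1 and translation of Atf4 were not measured. The parathyroid gene Pth ran from 1687 to 66987 CPM over the same libraries. Hspa5 had r = 0.21 with the follicular gene Tg, 0.21 with Calca and -0.05 with Pth itself, none of them called, and -0.02 with log2 depth. The count of 9 was the same with depth as a covariate and without the 5 libraries of unusual barcode content, and was 3 in the 23 libraries above 500000 counts.

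**Figure D5:**
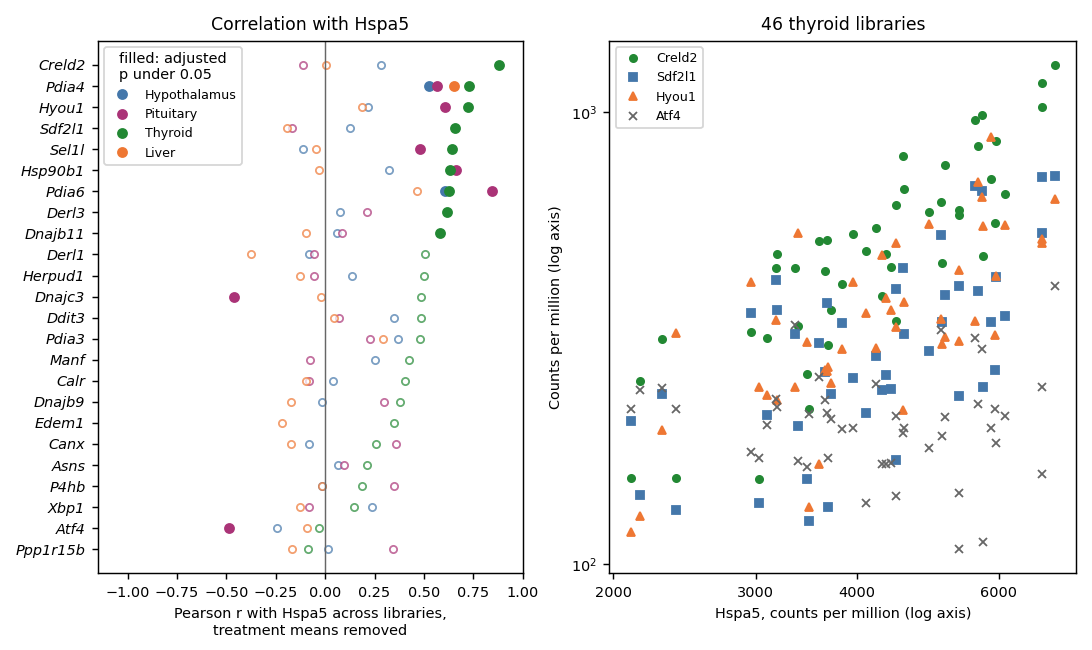
Left, Pearson's r of each member with Hspa5 across the libraries of each tissue after removal of treatment means, filled where the adjusted p was under 0.05. Right, levels in CPM (log axes) of Creld2, Sdf2l1, Hyou1 and Atf4 against Hspa5 in the 46 thyroid libraries, where Creld2 (r = 0.88) climbs with Hspa5 and Atf4 (-0.03) does not.

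Of the 30 genes correlated with Hspa5 in thyroid, 9 were members and 13 stood in the pathway lists. The genes most like Hspa5 outside the members were Hspa8 (r = 0.75), the nucleotide sugar transporter gene Slc35b1 (0.73), the signal recognition particle gene Srp9 (0.69), Bcat2 (0.68), the oligosaccharyltransferase gene Ostc (0.68) and Sec61a1, the translocon channel (0.67), over 46 libraries. Of the 10 tested members with an ERSE or ERSE-II, such as Creld2, Derl3 and Hsp90b1, 5 were among the 9, with a median r of 0.54. Of the 10 with a promoter entry but neither motif 3 were, with a median of 0.36, and of the 4 without an entry 1 was, with a median of 0.49. In hypothalamus the medians with and without a motif stood in the same order, at 0.14 and 0.04. The order was reversed in pituitary, at 0.01 and 0.30, and the medians were nearly equal in liver, at -0.10 and -0.09. These are descriptions with no test.

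Elsewhere fewer members tracked Hspa5, or the background was high. In hypothalamus 2 of 23 did, Pdia6 (r = 0.60, rho 0.60) and Pdia4 (0.53, rho 0.47), over 47 libraries where 0.637% of genes did and 1.12% in either direction. In pituitary 5 of 23 were positive, Pdia6 (0.84), Hsp90b1 (0.66), Hyou1 (0.61), Pdia4 (0.57) and Sel1l (0.48), and 2 negative, Atf4 (-0.49) and Dnajc3 (-0.46), but 22.3% of all genes were called (10.6% positive), Hspa5 itself had r = -0.50 with log2 depth, and with depth as a covariate 2 members were called, Pdia6 and Hsp90b1. In liver 1 of 21 did, Pdia4 (r = 0.65, rho 0.56), over 37 libraries where 3.94% of genes did and 6.53% in either direction. Liver Hspa5 had r = -0.56 with Tg and -0.55 with Pth, both called. Of the 6 hepatocyte markers Fgb alone was called (r = 0.73), while the others ran from -0.09 (Ttr) to 0.46 (Serpina1), with Alb at 0.42.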

How the data were processed

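The deposited tables give raw counts per gene and library, 17483 genes in 2 tables, made by the authors from BRB-seq reads. The submitters' processing notes name BWA 0.7.4.4 and rn6 without a stated role, and the counting step and any use of molecular identifiers are not given in the sources used here. Libraries under 100000 counts (14 of 192) were left out. CPM used library totals. Comparisons used edgeR 4.0.16 (R 4.3.3) with TMM scaling, filterByExpr (minimum count 10), the quasi-likelihood F test and Benjamini-Hochberg adjustment over all genes tested, with a threshold of 0.05. All treatments of a tissue were fitted together, and tissues were compared in vehicle libraries. DESeq2 1.42.0, library totals, a depth covariate, other depth minimums, thinning, no filter and barcode content were alternatives. Correlations with Hspa5 used log2 CPM (prior count 2) less treatment means and 100000 permutations (Python 3.11.15, SciPy 1.17.1).

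Members and lists were chosen with earlier results of these data known. A member was detected where at least 50% of libraries had a count, which held for 29 of 31 in each tissue. Full values were given for members called under a treatment, for Hspa5, Hsp90b1, Xbp1, Atf4, Atf6, Ddit3, Ern1 and Eif2ak3, and for the 6 members with the highest r. From each list up to 3 called genes per comparison were named by p-value.

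On simulated data, edgeR recovered 91% of 2-fold changes among 6501 genes for hypothalamus PFOS against vehicle and 91% among 4272 for pituitary. The shares were 86.6% among 5018 for thyroid and 65.7% among 3182 for liver. Of 1.5-fold changes it recovered 62.7% in hypothalamus, 61.2% in pituitary, 64.2% in thyroid and 17.9% in liver. No pair of libraries held identical values. The labels number libraries 1 to 48 in each tissue, without saying what the number marks. Same-numbered thyroid and hypothalamus libraries correlated after removal of group means (median 0.231, lowest 0.105, 45 of 45 above 0.1), so they were taken as paired by number. They also carried the same well barcode (48 of 48), so number and barcode cannot be told apart. For thyroid against hypothalamus the fit with the replicate number as a block called 22 members, as did the fit without it.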

Additional observations from a re-analysis of the deposited data

Results flagged for a closer look

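Single libraries that stood far from the rest of their group were looked for in 113 groups of member values, and 12 were found. Chance marks about 1 in 20 such groups. The rule used covers at most 10 libraries, so only the liver groups and the thyroid PFOS group were examined. The hypothalamus and pituitary groups and the other thyroid groups, of 11 or 12 libraries, were not examined. In thyroid, Hyou1 was at 879 CPM in PFOS library 30, against 563 in the next. The other 11 were in liver, the only other tissue examined, where depth was lowest. Among vehicle livers, library 2, with 106742 counts in all, was the highest for Dnajb9 (84.3 CPM against 42.7 in the next), Dnajb11 (169 against 79.3) and Hyou1 (234 against 104). Vehicle library 3 held Ppp1r15b at 272 CPM against 93.7, and vehicle library 10 held Hspa5 at 932 against 729. A vancomycin liver had Ddit3 at 60.9 CPM against 30.8. In PFOS library 27 Dnajb9 was at 74.7 CPM against 46.4 and Herpud1 at 344 against 185. Under the combination, Canx was at 267 CPM against 185 in library 38, and in library 45, with 137827 counts, Sel1l was at 116 against 58.1 and Derl1 at 167 against 96.2.

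The PFOS effect differed between tissues for Dnajb9 and Ppp1r15b by a test of the difference itself, at -0.96 and -1.87 (log2) between pituitary and hypothalamus and 1.1 and 1.79 between thyroid and pituitary. These rest in part on 5 vehicle pituitary libraries of unusual barcode content, without which none of the 4 was called.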

How the results depend on the processing

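Of 268 alternative values of the counts of members, 238 stayed within 1.5 times and 30 did not. Of values for single members, 740 kept direction and call, 125 lost the call and 11 reversed. The causes were not tested.

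Hypothalamus under PFOS went from 1 member to 0 with all libraries kept, a depth covariate, a 500000-count minimum and thinning. With no filter Calr was not called and 1 other member was. Under the combination it went from 1 to 2 with DESeq2, which added Calr, and to 0 with the depth covariate, thinning and without unusual barcodes. Pituitary under PFOS went from 2 to 0 with the 500000-count minimum and without unusual barcodes, and to 1 with thinning. Under the combination it went to 1 with the depth covariate, and to 0 with the minimum and without unusual barcodes. Thyroid combination against vancomycin went from 0 to 1 with DESeq2 (Xbp1) and with the minimum (Ppp1r15b, 1.44).

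Thinning left 11 members between vehicle hypothalamus and pituitary (18 without it), 10 between pituitary and thyroid (20), 11 between pituitary and liver (23) and 9 between thyroid and liver (21). The PFOS effect differences went from 2 to 0 with the depth covariate and without unusual barcodes, in both tissue pairs. Correlation counts went from 2 to 1 in hypothalamus and 7 to 2 in pituitary with the depth covariate, and with the 500000-count minimum from 7 to 0 in pituitary, 9 to 3 in thyroid and 1 to 0 in liver. The barcode alternative for tissues, effect differences and correlations was chosen after seeing the data.

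With the replicate number as a block, 1 member was called for the PFOS effect difference between pituitary and thyroid, where 2 were without it, as Ppp1r15b went to an adjusted p of 0.0515 by edgeR. The numbers were not taken to pair these tissues (median correlation 0.078, 19 of 46 above 0.1, 16 best with their own number). The block moved no other count of members by over 1.5 times.

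With library totals, reversals were Ddit3 (-0.20, pituitary against hypothalamus), Canx (-0.46), Hspa5 (-0.03) and Pdia6 (-0.12) in liver against hypothalamus, Canx (-0.063) and Xbp1 (-0.40) in liver against pituitary, and Dnajb11 (-0.66) and Dnajc3 (-0.088) in liver against thyroid. With thinning, Atf4 (-0.27) reversed in thyroid against hypothalamus, Hyou1 (0.033) in liver against pituitary and Atf4 (0.47) in liver against thyroid.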
